A study of Mus musculus with 6 samples.

Results

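The tripartite motif (Trim) genes were taken as every gene in the expression matrix whose symbol is Trim followed by a number and at most 1 letter. The matrix lists 54 such genes among 22248, and 36 of them reached a mean level of at least 1 FPKM (fragments per kilobase of transcript, scaled to the depth of the library) over the 6 libraries and were tested. The matrix was made from bone-marrow-derived macrophages (BMDMs), cells grown out of mouse bone marrow with macrophage colony-stimulating factor and left unstimulated. Control BMDMs came from Lyz2 cre mice, and CITED2-deficient BMDMs came from Cited2 fl/fl:Lyz2 cre mice, with 3 libraries in each group. Both groups carry Cre at the Lyz2 locus, which is active in myeloid cells, and the CITED2-deficient group carries in addition a floxed Cited2, a gene for a transcriptional coregulator that binds CBP and p300. The labels give strain C57BL/6 and postnatal week 10 for all libraries, while the study's methods give a younger age for the marrow donors. Deletion by this Cre starts during myeloid development and need not reach every cell, and the sources used here do not say whether littermates were compared. Per the study's methods, both groups descend from crosses between floxed and Cre mice kept on that strain. The study set these groups side by side to ask whether loss of CITED2 alters gene expression in resting macrophages.

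TRIM proteins share an N-terminal RING domain, 1 or more B-boxes and a coiled coil, and most act as ubiquitin ligases. The C-terminal domain sets the target. In many members it is a PRY-SPRY domain that binds a viral capsid, an antibody or a signalling protein, while others carry NHL repeats, a PHD finger with a bromodomain, or a transmembrane segment. In macrophages the family is known for blocking retroviruses and for tuning the pathways that sense foreign RNA and DNA, and a number of members are themselves induced by interferon.

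Depth, recovered from the steps between FPKM values, was 17289286 to 18952077 fragments in control libraries and 22583995 to 26100410 in CITED2-deficient libraries. Cited2 was measured at 71.7, 79.3 and 75.5 FPKM in the control libraries and at 9.27, 7.22 and 7.53 FPKM in the CITED2-deficient libraries, so the labels of all 6 held. Macrophage markers were high in every library. Over 9 genes they summed to 5818 to 5889 FPKM in control and 5472 to 5555 FPKM in CITED2-deficient BMDMs. However, 5 of the 9 were lower, among them Lyz2 (31.3 against 9.75 FPKM on average) and Itgam, and Fcgr1 was higher. Lyz2 is also the locus that carries Cre in both groups, and whether this has a part in its level was not tested. Of 8 tested granulocyte markers 5 were lower, led by Mpo (16.2 against 1.95 FPKM on average) and Elane (12.4 against 2.15). The 2 that were higher were Ltf (94.3 against 177) and Mmp8 (2.45 against 4.64), and the list summed to 729.3 to 797.7 against 663.4 to 782.6 FPKM. For comparison, 34.6% of all tested genes were lower and 16.7% higher. Fibroblast markers differed between the groups. The summed level of that list was 70.9 to 85.4 FPKM in control and 269.8 to 738.8 FPKM in CITED2-deficient BMDMs, highest in replicate 1, and all 9 of its 9 tested genes (12 listed, none at 0 throughout) were higher. Megakaryocyte markers summed to 314.2 to 343.1 against 78.4 to 89.7 FPKM, a sum made mostly of Pf4, which was lower, while Ppbp and Itga2b were higher. Endothelial markers summed to 5.73 to 6.01 against 26.9 to 32.3 FPKM, a sum made mostly of Kdr (4.26 against 27.5 on average). Cdh5 was higher at a low level (0.72 against 1.52), and Pecam1 was not called. Dendritic markers summed to 0.867 to 1.23 against 2.28 to 2.43 FPKM, and none of the 6 reached the level for testing. The groups overlapped for Flt3, Siglech and Zbtb46 and did not for Ccr7, Clec9a and Xcr1. The part of other cells in the Trim results was not tested. In bulk RNA, a smaller share of cells of a type and less RNA per cell cannot be told apart.

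Differences between the groups were tested with limma on log2(FPKM + 1), two-sided, and a gene is called higher or lower in CITED2-deficient BMDMs where its p-value, adjusted by Benjamini-Hochberg over the 11687 genes tested, was under 0.05. The p-values measure only the spread between the 3 libraries of a group. Of the 36 tested Trim genes, 25 were called (69.4%, against 51.3% of all tested genes). Trim genes were higher in 11 cases (30.6%, against 16.7% of all tested genes) and lower in 14 (38.9%, against 34.6%), and 11 were not called. Of these 36 genes, Trim34b reached the mean of 1 FPKM only through its level in CITED2-deficient BMDMs, and Trim5 and Trim12a only through theirs in control BMDMs. The control and CITED2-deficient libraries did not overlap for 26 Trim genes (59.9% of all tested genes did not). The median log2 fold change of the tested Trim genes was -0.10, the same to 2 decimals as that of all tested genes. The split of the calls depended on scaling. Of all calls, 32.5% were higher with the FPKM as deposited and 52% after median-ratio scaling, under which 12 Trim genes were higher and 9 lower. A called change of at least 1 on the log2 scale in either direction was seen in 5 Trim genes (5.26% of all tested genes had one), Trim12a, Trim5, Trim34b, Trim30c and Trim30a. All 5 lie in a single gene cluster on chromosome 7.

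**Figure D1:**
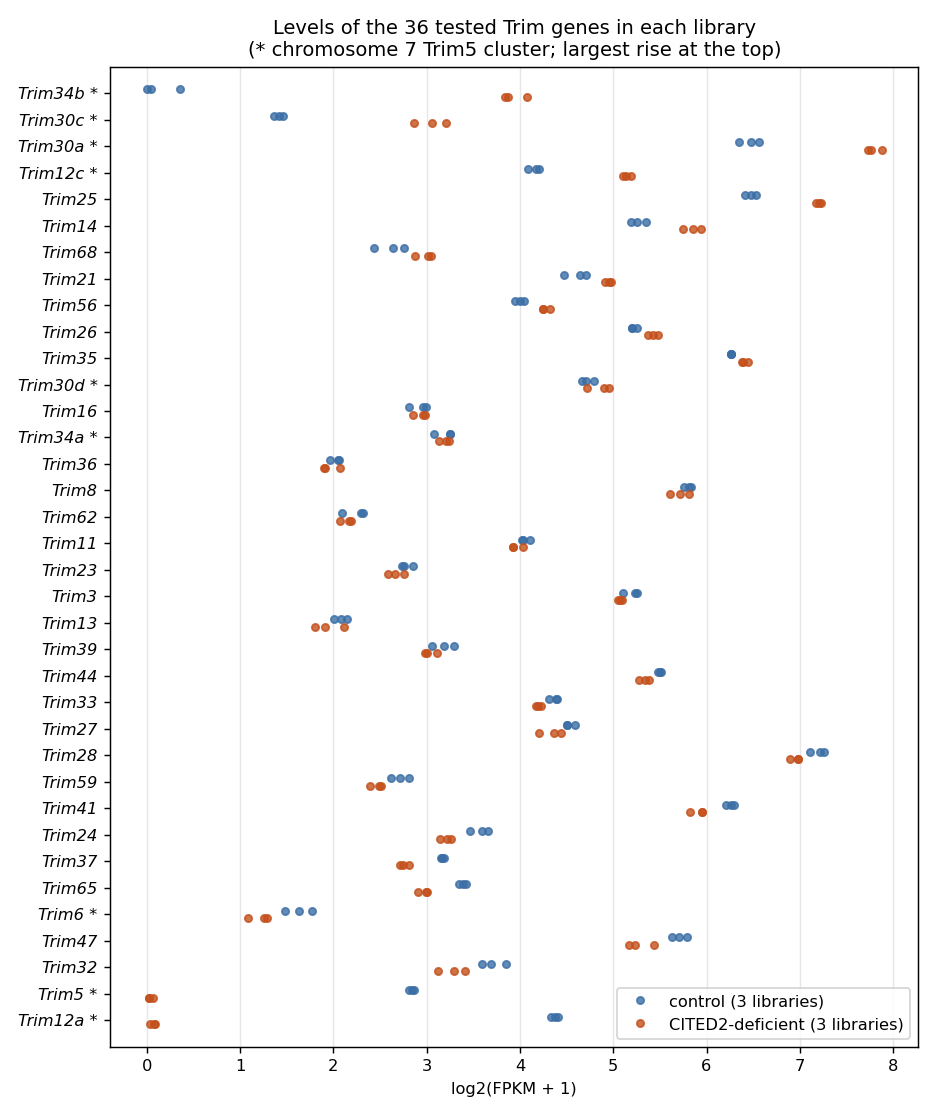
Level of each of the 36 tested Trim genes on the x axis as log2(FPKM + 1), with 1 point per library (blue, 3 control libraries; orange, 3 CITED2-deficient libraries) and genes ordered by fold change. The groups are far apart for Trim12a and Trim5 at the bottom and for Trim34b, Trim30c, Trim30a and Trim12c at the top, all from the chromosome 7 cluster (asterisks), and close together or overlapping for most others.

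The chromosome 7 cluster spans 289.1 kb, at chr7:104218793-104507849 in mm10, and holds 10 Trim genes. From the first start onward these are Trim6, Trim34a, Trim5, Trim12a, Trim34b, Trim12c, Trim30b, Trim30c, Trim30a and Trim30d. It is the mouse counterpart of the region that in primates carries TRIM5, whose protein binds incoming retroviral capsids. Of its 9 tested genes, 4 were higher (Trim34b, Trim30c, Trim30a and Trim12c), 3 were lower (Trim12a, Trim5 and Trim6), and Trim34a and Trim30d were not called. Over all tested genes 16.7% were higher and 34.6% lower. Some neighbouring genes of the cluster, such as Trim12a and Trim34b, thus moved in opposite directions. Among 12 other genes listed within 1 Mb on either side, 2 were expressed enough to be tested. Fam160a2 was lower (log2 fold change -0.47 ± 0.06 SE, adjusted p = 0.000129), and the pseudogene Gm5900 was not called (0.22 ± 0.29, adjusted p = 0.564). Cavin3, under the level for testing, was at 0.67, 0.49 and 0.41 FPKM in control and 1.89, 1.15 and 1.34 FPKM in CITED2-deficient libraries. In the limma fit with no filter on level its log2 fold change was 0.68 (adjusted p = 0.0127), and no other untested flank gene was under 0.05.

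Trim5 and Trim12a, which lie next to each other on the minus strand, were nearly absent from CITED2-deficient BMDMs. Trim12a (chr7:104299894-104315466) was at 19.1, 20.3 and 19.8 FPKM in the control libraries and at 0.0519, 0.0584 and 0.0253 FPKM in the CITED2-deficient libraries. These values correspond to 549, 532 and 570 fragments in control against 2, 2 and 1. Every CITED2-deficient library thus held almost no Trim12a fragments, although those libraries were the deeper ones. Over the 3 libraries of each group the fragments, scaled to depth, were 444-fold lower in CITED2-deficient BMDMs (exact 95% interval 190 to 1368, which covers counting error only). On the log2(FPKM + 1) scale, which understates changes that end near 0, the fold change was -4.31 ± 0.09 (SE, adjusted p = 1.13e-09), the third largest in size among all tested genes.

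Trim5 (chr7:104263386-104288094) was at 6.18, 6.03 and 6.28 FPKM in control and at 0.0154, 0.0173 and 0.0449 FPKM in CITED2-deficient libraries, or 299, 267 and 305 fragments against 1, 1 and 3. The groups were separated by more than 5 FPKM in every pair of libraries. Its depth-scaled fragments were 234-fold lower (exact 95% interval 99.9 to 723), and its log2 fold change was -2.80 ± 0.11 (SE, adjusted p = 7.85e-08). A change of at least 2.5 on this scale in either direction was called for 0.496% of all tested genes, and Trim12a, Trim5 and Trim34b were among them.

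Trim34b (chr7:104329471-104336909, plus strand), which follows Trim12a in the cluster and encodes a RING and SPRY protein, showed the reverse. It was at 0.283, 0.0344 and 0 FPKM in control and at 13.3, 15.9 and 13.6 FPKM in CITED2-deficient libraries. The fragments behind these values were 9, 1 and 0 against 568, 602 and 597. Trim34b was thus close to undetected in control BMDMs and plainly present in all CITED2-deficient libraries. Its depth-scaled fragments were 132-fold higher (exact 95% interval 71.3 to 275), and the log2 fold change was 3.79 ± 0.13 (SE, adjusted p = 2.74e-08). The 3 genes with these near on-and-off patterns lie within 73.5 kb, from the lowest coordinate of Trim5 to the highest of Trim34b. Cited2 itself lies on chromosome 10. Genotype and mouse line go together in this design, so loss of CITED2 and a difference between the lines in this chromosome 7 segment cannot be told apart. The labels do not give the origin of the segment, and it was not tested.

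The close copies of these 3 genes did not follow them. Trim12c (chr7:104338754-104353362), the nearest relative of Trim5 and Trim12a that was still expressed, was at 17.0, 17.4 and 15.99 FPKM in control and 33.5, 35.5 and 34.2 FPKM in CITED2-deficient libraries. All CITED2-deficient values were close to double the control values, with a log2 fold change of 0.99 ± 0.05 (SE, adjusted p = 3.9e-07). Trim34a, the copy of Trim34b, was at 7.42, 8.50 and 8.54 FPKM in control and 8.20, 8.44 and 7.76 FPKM in CITED2-deficient libraries. Its groups overlapped, the ratio of its depth-scaled fragments was 0.997 (exact 95% interval 0.921 to 1.08), and its adjusted p was 0.993.

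The likeness of these copies bears on how far their values can be separated, so the start of their coding sequences is shown. Each line gives the first 90 coding bases from the GENCODE vM21 transcripts, in lower case, with capitals at bases that differ from Trim12c (for Trim12a and Trim5) or from Trim34a (for Trim34b).
Trim12c: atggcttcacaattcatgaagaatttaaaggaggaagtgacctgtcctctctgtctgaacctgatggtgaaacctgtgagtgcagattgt
Trim12a: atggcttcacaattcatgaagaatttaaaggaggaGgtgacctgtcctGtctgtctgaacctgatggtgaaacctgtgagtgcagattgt
Trim5: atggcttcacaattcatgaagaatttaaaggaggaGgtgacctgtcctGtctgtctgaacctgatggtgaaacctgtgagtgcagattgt
Trim34a: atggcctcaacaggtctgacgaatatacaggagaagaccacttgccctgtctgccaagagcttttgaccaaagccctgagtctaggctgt
Trim34b: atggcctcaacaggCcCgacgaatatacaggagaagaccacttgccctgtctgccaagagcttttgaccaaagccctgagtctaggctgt
In mm10 these stretches lie at chr7:104348258-104348347 (Trim12c, minus strand), chr7:104307242-104307331 (Trim12a, minus), chr7:104279643-104279732 (Trim5, minus), chr7:104247731-104247820 (Trim34a, plus) and chr7:104329548-104329637 (Trim34b, plus), all in coding exons. Trim12a and Trim5 each differed from Trim12c at 2 of these 90 bases, and Trim34b differed from Trim34a at 2. Over the aligned coding bases, identity was 97.1% between Trim5 and Trim12a, 96.6% between Trim5 and Trim12c, 96.4% between Trim12a and Trim12c and 98.8% between Trim34a and Trim34b. Trim5 and Trim12c have coding sequences of 1491 bases, whereas that of Trim12a ends after 891. Among all stretches of 50 bases in the annotated transcript with the longest coding sequence, the share also found in another gene was 38.1% for Trim5, 31.2% for Trim12a, 32.7% for Trim12c, 41.3% for Trim34a and 59.0% for Trim34b. Fragments from such stretches cannot be assigned to 1 gene by sequence, and the sources used here do not say how the authors' quantification divided them.

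Sums over copies are given because a division of fragments among the summed genes does not alter them, but how fragments shared with other genes or mapped to several places were treated could, and this was not tested. Trim5, Trim12a and Trim12c together held 97.7, 100.4 and 95.9 fragments per 1000000 of the library in control and 104.4, 110.7 and 106.5 in CITED2-deficient libraries. The sum was thus a little higher in each CITED2-deficient library, while its makeup went from mixed to almost entirely Trim12c. Trim34a and Trim34b together held 18.3, 20.5 and 20.5 on this scale in control and 42.1, 46.9 and 41.5 in CITED2-deficient libraries. The whole cluster summed to 301.8 to 321.3 in control and 537.5 to 594.4 in CITED2-deficient BMDMs. None of the 3 sums overlapped between the groups, and their differences were not tested.

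**Figure D2:**
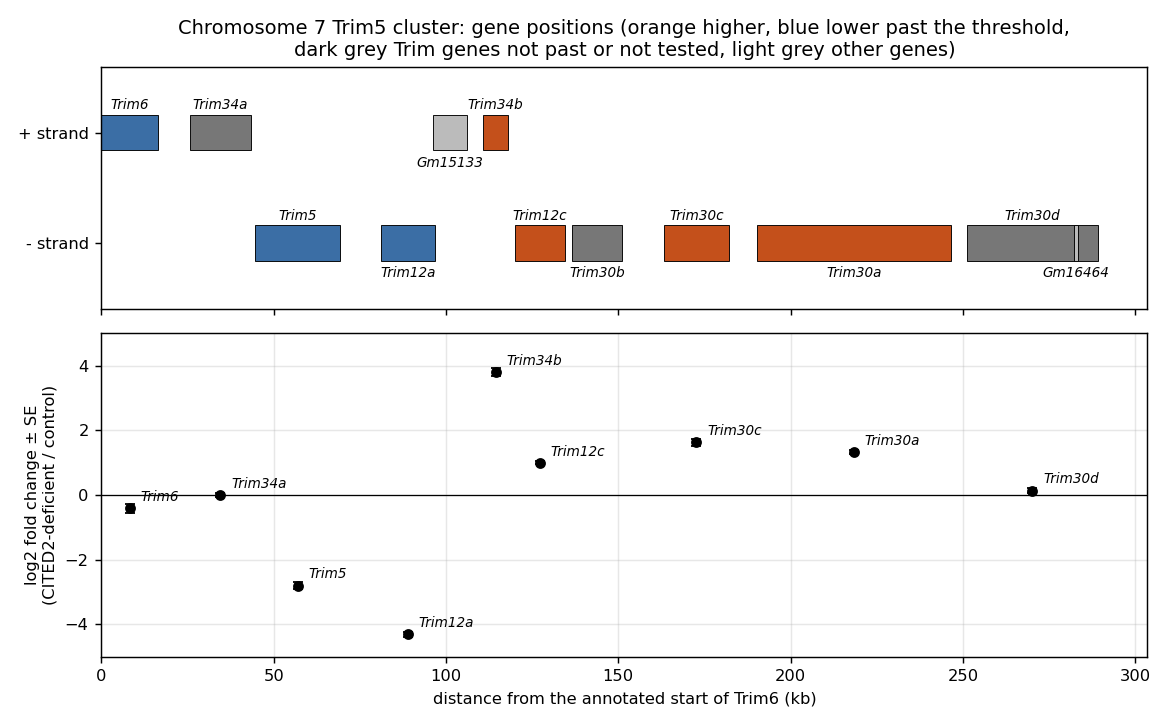
The upper panel places the genes of the chromosome 7 cluster by distance in kb from the annotated start of Trim6 and by strand. The lower panel gives the log2 fold change (CITED2-deficient over control, 3 libraries each) of each tested Trim gene at its midpoint with its SE, from -4.31 for Trim12a to 3.79 for Trim34b, its neighbour.

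The Trim30 genes fill the far end of the cluster. Trim30a, whose protein is known for restraining Toll-like receptor signalling through TAB2 and TAB3, had the highest mean level of all Trim genes. It was at 87.8, 80.3 and 93.8 FPKM in control and 211, 234 and 217 FPKM in CITED2-deficient libraries, with a log2 fold change of 1.33 ± 0.06 (SE, adjusted p = 1.68e-07). Trim30c was at 1.66, 1.75 and 1.57 FPKM in control and 7.34, 8.21 and 6.27 FPKM in CITED2-deficient libraries, with a log2 fold change of 1.63 ± 0.11 (SE, adjusted p = 2.63e-06). Both groups of values were well separated for Trim30a and Trim30c. Few of their 50-base stretches occur in another gene, 6.53% for Trim30a and 0.66% for Trim30c.

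Trim30d and Trim30b, of the same subfamily, differed less. Trim30d was at 24.4, 25.1 and 26.8 FPKM in control and 25.4, 30.01 and 28.8 FPKM in CITED2-deficient libraries. The groups overlapped through CITED2-deficient replicate 1, and the log2 fold change was 0.14 ± 0.07 (SE, adjusted p = 0.119). Without that library it was 0.20 (adjusted p = 0.019), and it was 0.24 after median-ratio scaling (adjusted p = 0.0204). Trim30b was under the level for testing, with 27, 39 and 56 fragments in control and 49, 51 and 65 in CITED2-deficient libraries.

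Trim6 lies at the opposite end, and its protein is known for making unanchored ubiquitin chains that activate the kinase IKK epsilon. It was at 1.79, 2.41 and 2.09 FPKM in control and 1.45, 1.13 and 1.38 FPKM in CITED2-deficient libraries. The groups did not overlap, but the values rest on 36 to 59 fragments per library. The log2 fold change was -0.42 ± 0.13 (SE, adjusted p = 0.0251). The call was lost without control replicate 2 (-0.34, adjusted p = 0.0805), control replicate 3 (-0.42, 0.0605), CITED2-deficient replicate 2 (-0.36, 0.0802) or CITED2-deficient replicate 3 (-0.44, 0.0518). It was also lost after median-ratio scaling (-0.35, 0.0547) and with no filter on level (-0.42, 0.0536).

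The cluster span lists 4 other transcripts, and 2 of them were nearly absent from CITED2-deficient BMDMs, like Trim5 and Trim12a. Gm15133, an antisense RNA that overlaps 448 bases of Trim12a on the other strand, had 18, 8 and 17 fragments in control and 0 in all CITED2-deficient libraries, at least 19.3-fold lower when 3 fragments over the group are taken as the floor and at least 15.001-fold lower by the exact 95% interval, which also covers counting error in the control fragments. Gm16464, a processed pseudogene inside Trim30d, had 17, 38 and 33 fragments in control and 1, 0 and 1 in CITED2-deficient libraries, or 59.1-fold lower after scaling to depth (exact 95% interval 15.9 to 496). Both were under the level for testing. With no filter on level their adjusted p was 0.0018 and 0.00288. Of the remaining pair, the snRNA Gm25405, with fragments in 1 library, was tested and not called. The pseudogene Gm45471, with 4, 0 and 0 fragments in control and 5, 4 and 5 in CITED2-deficient libraries, was under the level for testing. The libraries were stranded, but the sources used here do not say whether counting used strand, and Gm16464 and Trim30d overlap on the same strand, which leaves their shared fragments uncertain.

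**Figure D3:**
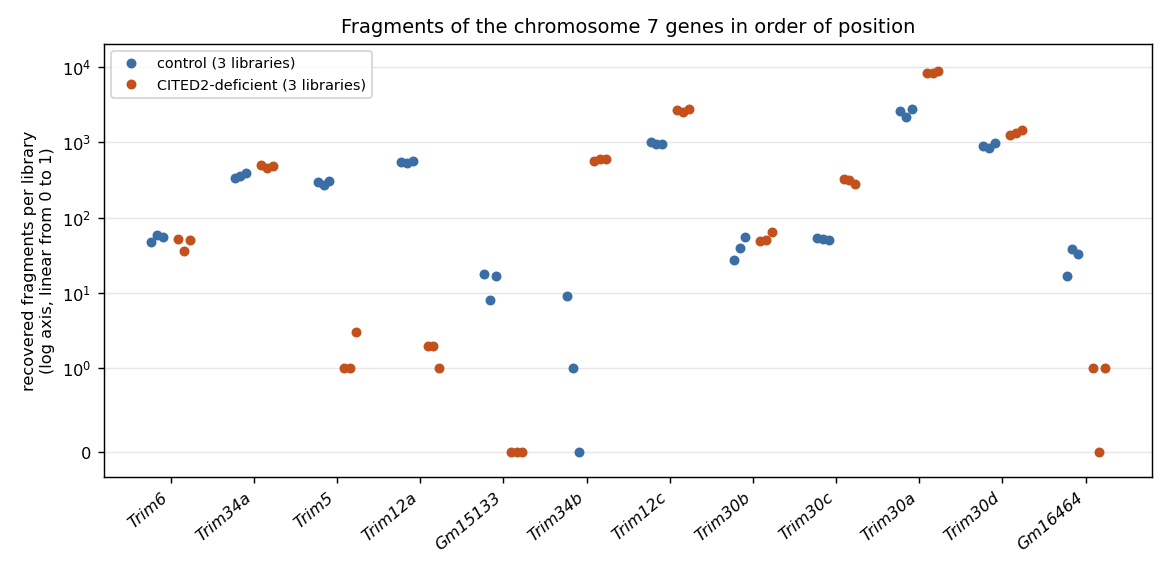
Recovered fragments per library (y axis, logarithmic above 1 and linear from 0 to 1, not scaled for depth) for the 10 Trim genes of the chromosome 7 cluster and for Gm15133 and Gm16464, in order of position. Trim5, Trim12a, Gm15133 and Gm16464 go from between 8 and 570 fragments in control (blue) to between 0 and 3 in CITED2-deficient libraries (orange), and Trim34b goes from between 0 and 9 to between 568 and 602.

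Promoters were examined for short motifs because several Trim genes are interferon-induced. RefSeq promoter windows (GRCm38.p6, from 250 bases before to 50 after an annotated start) were matched by symbol for 42 of the 54 Trim genes, of which 27 were tested. The core of the interferon-stimulated response element, searched as GAAA, any 2 bases and GAAA again on either strand, was present in 9 of the 42 (21.4%), against 3.99% of all 27025 genes with a window. Those 9 were Trim5, Trim12a, Trim12c, Trim34a, Trim30a, Trim30d, Trim21, Trim26 and Trim2. Among the 8 that were tested, 4 were higher, 2 lower and 2 not called, and among the 19 tested genes whose windows did not hold the motif 5 were higher, 10 lower and 4 not called. Shares over all tested genes were 16.7% higher and 34.6% lower. Trim5, Trim12a, Trim12c, Trim34a, Trim30a and Trim30d lie in the chromosome 7 cluster, and close copies among them share nearly the same letters. These counts are therefore not of independent genes, and a link between motif and call was not tested. The gamma-activated site core TTCNNNGAA was in 5 of the 42 (11.9%), against 9.55% of all genes, and Trim30c was the only tested gene of these. A match describes letters and no bound factor.

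The stretches around the matches in the chromosome 7 cluster are shown because genes with nearly the same letters went in different directions. Each is written on the strand of its gene with the match in capitals (TTTC, 2 bases and TTTC again is the same core read from the other strand).
Trim5: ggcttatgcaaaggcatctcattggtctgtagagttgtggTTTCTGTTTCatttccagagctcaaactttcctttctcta
Trim12a: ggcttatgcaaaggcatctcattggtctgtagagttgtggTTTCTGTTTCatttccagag
Trim12c: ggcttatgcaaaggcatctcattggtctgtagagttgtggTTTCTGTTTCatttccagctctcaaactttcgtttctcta
Trim34a: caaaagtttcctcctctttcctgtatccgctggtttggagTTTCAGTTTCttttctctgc
Trim30a: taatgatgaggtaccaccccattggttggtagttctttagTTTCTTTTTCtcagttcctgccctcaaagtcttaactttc
Trim30d: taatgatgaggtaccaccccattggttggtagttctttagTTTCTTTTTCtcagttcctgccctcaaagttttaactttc
Trim30c: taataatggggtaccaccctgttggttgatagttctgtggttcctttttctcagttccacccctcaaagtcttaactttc
Trim34b: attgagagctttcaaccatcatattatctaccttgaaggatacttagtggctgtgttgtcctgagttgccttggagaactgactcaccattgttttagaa
They lie on chromosome 7 at chr7:104288116-104288195 (Trim5, minus strand), chr7:104315466-104315525 (Trim12a, minus), chr7:104353339-104353418 (Trim12c, minus), chr7:104244427-104244486 (Trim34a, plus), chr7:104465190-104465269 (Trim30a, minus), chr7:104507851-104507930 (Trim30d, minus), chr7:104400876-104400955 (Trim30c, minus) and chr7:104329371-104329470 (Trim34b, plus). Counted from the annotated start, the match lay at -49 to -40 in Trim5, 11 to 20 in Trim12a, -29 to -20 in Trim12c, 11 to 20 in Trim34a, -36 to -27 in Trim30a and -41 to -32 in Trim30d. Trim5 and Trim12a fell and Trim12c rose, and all hold the same 10 letters. Trim30a rose and Trim30d was not called with the same core as well. The Trim30c stretch equals that of Trim30a at 70 of 80 bases and holds no match, and no match was found in the Trim34b window. Both genes rose. Whether these letters have a part in any change was not tested.

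Outside the cluster, 27 Trim genes were tested, of which 7 were higher and 11 lower, against 16.7% and 34.6% of all tested genes. No called change among these 27 exceeded 0.73 in size on the log2 scale. The largest were those of Trim25 and Trim14, which act in the sensing of viral RNA. Trim25, the ligase that ubiquitinates the RNA sensor RIG-I and the third Trim gene by mean level, was at 91.5, 84.4 and 88.0 FPKM in control and 143, 148 and 147 FPKM in CITED2-deficient libraries (log2 fold change 0.73 ± 0.04 SE, adjusted p = 4.52e-07). Trim14, which lacks a RING and serves as an adaptor at the mitochondrial protein MAVS, was at 37.3, 35.6 and 39.9 FPKM in control and 52.6, 57.0 and 60.3 FPKM in CITED2-deficient libraries (0.58 ± 0.06 SE, adjusted p = 4.74e-05). Neither gene's groups overlapped. With the chromosome 7 genes these make 8 Trim genes called with a change of at least 0.5 in size, which 16.8% of all tested genes had. Trim14 overlaps Nans on the opposite strand, as Trim28 does Zbtb45 and Trim32 does Astn2, and without strand in counting such fragments cannot be told apart.

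Of the Trim genes with known roles in nucleic acid sensing, 15 of 19 names were tested, 6 were higher and 5 lower, with a median log2 fold change of -0.09. Over all tested genes 16.7% were higher and 34.6% lower, with a median of -0.10. Besides Trim25 and Trim14, the higher ones were Trim68 (0.37 ± 0.10 SE), Trim21 (0.34 ± 0.06), a cytosolic antibody receptor, Trim56 (0.28 ± 0.05), linked to the DNA sensing adaptor STING, and Trim26 (0.21 ± 0.04), linked to turnover of IRF3. Trim21 and Trim68 are neighbours elsewhere on chromosome 7. The lower ones were Trim32 (-0.43 ± 0.09), Trim65 (-0.42 ± 0.07), the ligase of the RNA sensor MDA5, Trim59 (-0.25 ± 0.09), Trim27 (-0.20 ± 0.07) and Trim44 (-0.17 ± 0.04). Trim8, Trim11, Trim13 and Trim23 were not called, with log2 fold changes from -0.14 to -0.09.

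Some of these lower calls were weak. With 1 library left out at a time, Trim27 was called in 1 of 6 fits (adjusted p from 0.0172 to 0.1) and Trim59 in 1 of 6 (0.0314 to 0.118), Trim27 only without CITED2-deficient replicate 3 and Trim59 only without control replicate 2. Without CITED2-deficient replicate 1, the library highest in fibroblast markers, 6 genes of this list were higher and 3 lower. Trim8 was called lower without CITED2-deficient replicate 3 (-0.14, adjusted p = 0.0497). After median-ratio scaling the calls of Trim27, Trim59 and Trim44 were lost, with adjusted p of 0.258, 0.156 and 0.23, and the list stood at 6 higher and 2 lower. Trim65 shares 5365 bases of one strand with its neighbour Trim47, so that fragments of the overlap are uncertain for both.

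The transcriptional intermediary factors, TRIM proteins with a PHD finger and a bromodomain, were lower in all 3 tested cases (median log2 fold change -0.24, against 34.6% of all tested genes lower), and in 2 of 3 after median-ratio scaling. Trim28, the corepressor KAP1 that silences retroelements with KRAB zinc finger proteins, was the second most abundant Trim gene. It was at 148, 152 and 137 FPKM in control and 125, 118 and 126 FPKM in CITED2-deficient libraries (log2 fold change -0.24 ± 0.04 SE, adjusted p = 0.00162). All control values lay above all CITED2-deficient values. Trim24 changed by -0.36 ± 0.07 (adjusted p = 0.00255) and Trim33 by -0.17 ± 0.05 (adjusted p = 0.0174). The Trim33 call was lost without control replicate 1 (adjusted p = 0.0609), control replicate 3 (0.0566) or CITED2-deficient replicate 2 (0.0551) and after median-ratio scaling (0.26). Trim66, the remaining member, had 11 fragments in control and 33 in CITED2-deficient libraries in all.

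Among the remaining tested Trim genes, called changes were between -0.43 and 0.14. Of 5 other genes with a SPRY domain, Trim35 was higher (0.14 ± 0.03 SE), Trim41 (-0.35 ± 0.05) and Trim47 (-0.43 ± 0.07) were lower, and Trim39 and Trim62 were not called. For comparison, 16.7% of all tested genes were higher and 34.6% lower. Trim37, which carries a MATH domain and limits centriole number, was lower (-0.41 ± 0.07). Trim3, with NHL repeats, had groups that did not overlap but an adjusted p of 0.053 (-0.13 ± 0.05), and was called without control replicate 2 (-0.17, adjusted p = 0.0138). Trim16 (0.01 ± 0.08) and Trim36 (-0.07 ± 0.10) were not called.

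**Figure D4:**
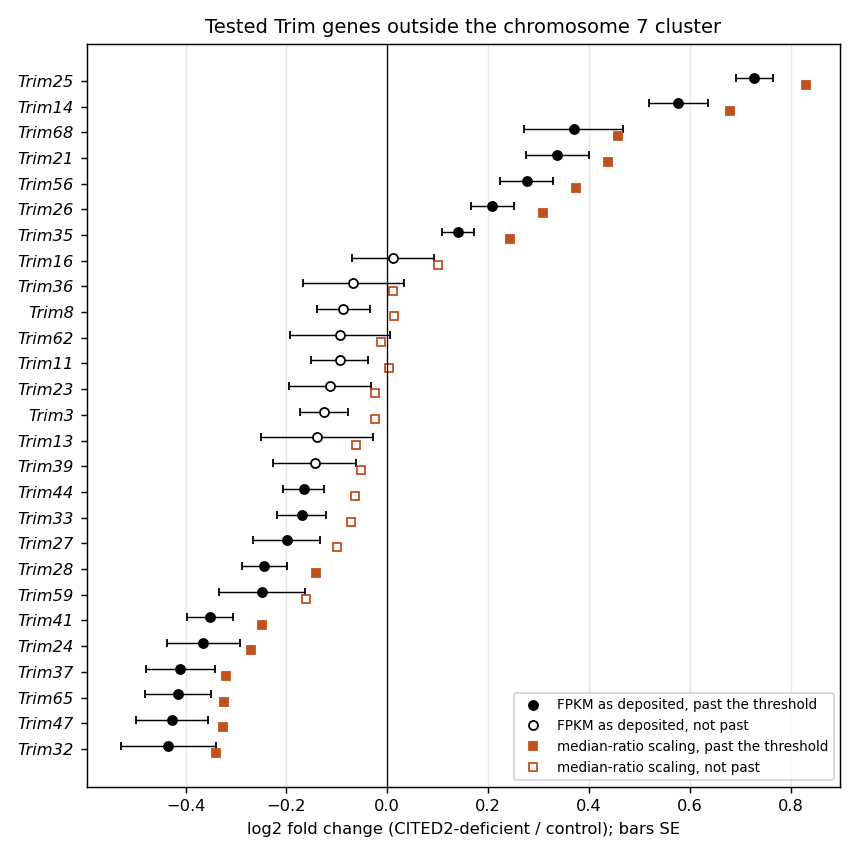
Log2 fold change (CITED2-deficient over control, 3 libraries each) of the 27 tested Trim genes outside the chromosome 7 cluster, with SE bars for the FPKM as deposited (black) and the value after median-ratio scaling (orange squares), filled where the adjusted p was under 0.05. Median-ratio scaling moves every gene to the right, leaves the 7 higher calls in place and empties the symbols of Trim44, Trim33, Trim27 and Trim59.

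The 18 Trim genes under the level for testing were rare in these macrophages. Trim7, known as a ligase for an AP-1 coactivator, had 30, 30 and 26 fragments in control and 16, 8 and 16 in CITED2-deficient libraries. With no filter on level its log2 fold change was -0.49 (adjusted p = 0.0049), and -1.54 with limma-voom on fragments (adjusted p = 0.00312). Trim46, which bundles microtubules in neurons, had 8, 15 and 20 fragments in control and 46, 36 and 35 in CITED2-deficient libraries, with adjusted p of 0.0511 and 0.0369 in those 2 fits. Trim2 and Trim45 each had between 35 and 85 fragments per library, with groups that overlapped. Trim29, Trim17 and Trim15 had at most 27 fragments in a library. Trim43c, Trim43a, Trim66, Trim69, Trim58, Trim75, Trim72, Trim38, Trim10 and Trim42 had at most 14, and many of these libraries held none.

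TRIM proteins that go by other names were counted as well. Of 12 such names 4 were tested, 3 higher and 1 lower (median log2 fold change 0.74). The shares over all tested genes were 16.7% higher and 34.6% lower, with a median of -0.10. Pml, which organizes nuclear bodies, was at 33.8, 33.4 and 33.4 FPKM in control and 68.8, 74.8 and 71.2 FPKM in CITED2-deficient libraries (log2 fold change 1.07 ± 0.04 SE, adjusted p = 6.03e-08). Mid1 (0.75 ± 0.09) and Mefv, the gene of pyrin (0.73 ± 0.12), were higher. Fsd1l was lower (-0.37 ± 0.14, adjusted p = 0.0479), a call that was lost without CITED2-deficient replicate 1 and after median-ratio scaling (adjusted p = 0.0922).

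Partners of the TRIM proteins were described by list. Of 22 genes of nucleic acid sensing, 12 were higher and 5 lower, with a median log2 fold change of 0.23, where 16.7% of all tested genes were higher and 34.6% lower with a median of -0.10. Irf7 (3.46 ± 0.06), Dhx58 (1.79 ± 0.05), Ddx58, the gene of RIG-I (1.73 ± 0.06), and Ifih1, the gene of MDA5 (1.72 ± 0.05), led the list, so that Trim25 and its substrate rose together while Trim65 fell and its substrate rose. Mavs (-0.20 ± 0.05) and Irf3 (-0.39 ± 0.05) were lower. Of 16 interferon receptors and response factors, 8 were higher (median 0.20), led by Usp18 (2.30 ± 0.08) and Stat2 (2.10 ± 0.04), and 4 lower, led by Ifngr1 (-0.92 ± 0.03). Of 10 genes of retroviral restriction and capsid entry, 6 were higher (median 0.16), led by Bst2 (1.67 ± 0.05) and Mov10 (1.43 ± 0.06), and 2 lower, among them Fv1 (-0.55 ± 0.17). Without CITED2-deficient replicate 1 the last list stood at 5 higher and 1 lower.

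Of 11 partners of TRIM28 in silencing, 3 were higher and 5 lower, with a median of -0.15, against 16.7% higher and 34.6% lower over all tested genes. Setdb1, the histone methyltransferase that TRIM28 recruits, was lower (-0.42 ± 0.06 SE), as was Cbx3 (-0.28 ± 0.05), while Morc3 was higher (0.48 ± 0.05). After median-ratio scaling 3 were higher and 2 lower. Of 11 ubiquitin-conjugating E2 enzymes that work with TRIM ligases, 3 were lower and 1 higher (median -0.07), the latter being Ube2l6 (1.72 ± 0.05). The scaling left 1 higher and 1 lower.

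**Figure D5:**
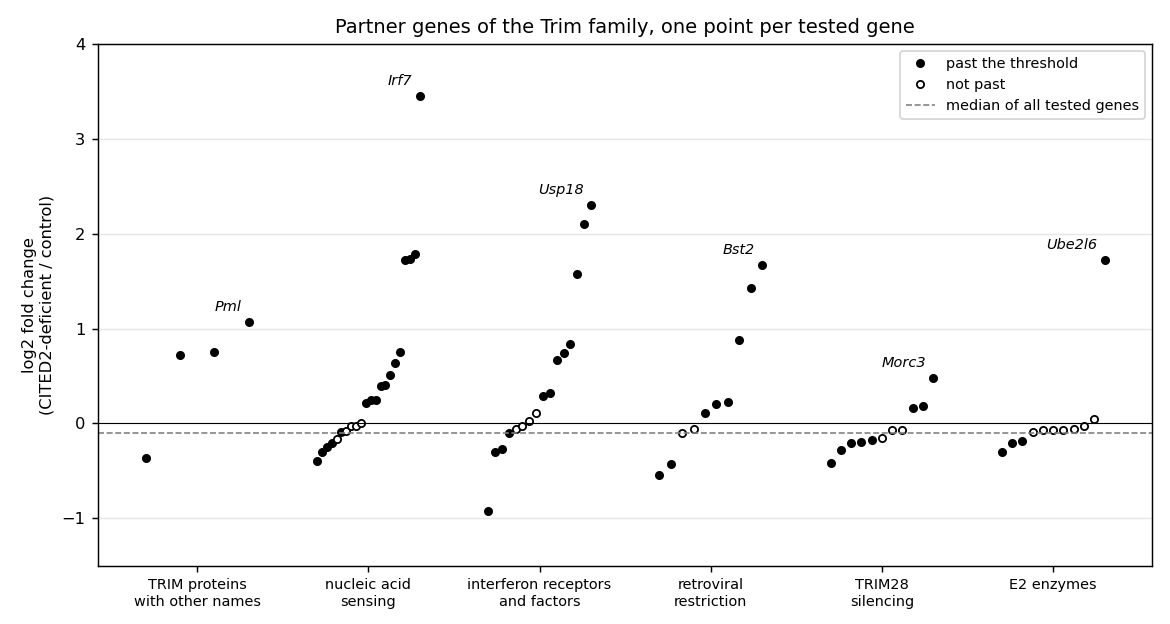
Log2 fold change (y axis, CITED2-deficient over control, 3 libraries each) of every tested gene in 6 lists of TRIM relatives and partners, 1 point per gene, filled where the adjusted p was under 0.05 and with the gene of largest change named. Irf7 at 3.46 and Usp18 at 2.30 stand highest, and in the TRIM28 and E2 lists most genes lie near the median of all tested genes (dashed line, -0.10).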

How the data were processed

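Total RNA of BMDMs was made into stranded, ribosomal RNA-depleted libraries. The authors mapped reads to mm10 with STAR and deposited FPKM per gene and library from Cuffdiff (versions not given in the sources used here). Column names were matched to samples through RefSeq synonyms of Cited2 and Lyz2. Genes whose mean FPKM was 1 or more were tested on log2(FPKM + 1), a pseudocount of 1, with limma 3.58.1 in R 4.3.3 (variance trend, Benjamini-Hochberg adjustment, threshold 0.05). Fragment numbers were recovered from FPKM and mean transcript length in GENCODE vM21, and 96.1% of 22239 matched genes were within 0.02 of whole numbers in all libraries. Replicates differed by more than sampling noise (mean chi-square per gene 2.31 to 6.41), so none was counted as a duplicate. Sequences were read with Python 3.11.15 and aligned with Biopython 1.88.

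Values in every library are given for the chromosome 7 cluster, called Trim genes with a log2 fold change of at least 0.5 in size and the 3 most abundant, and for partner lists up to 4 called genes of largest change. Exceptions chosen after their values were seen are Trim7, Trim46 and Cavin3, the named genes of other lists outside this rule, and Pml by library. The members and lists were chosen with earlier results of these data known. The main fit was also run on simulated data in which few genes changed, as many up as down. Many more genes differ in the real data, so those runs cannot speak to the dependence on scaling. Alternatives were pseudocounts of 0.1 and 0.5, no filter, a minimum mean FPKM of 5, median-ratio scaling, quantile normalization, no trend, array weights, a replicate block, limma-voom on fragments, a fold threshold and each library left out. Fragment ratios, partner counts under other scalings or without CITED2-deficient replicate 1, and limma-voom with no filter were added after seeing the data.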

Additional observations from a re-analysis of the deposited data

How the results depend on the processing

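Of the 36 tested Trim genes, 24 kept their direction and side of the threshold in every alternative that tested them, the fold threshold aside. The number of Trim genes called ranged from 21 to 26, apart from the fold threshold. With a log2 fold change of at least 1 in size required, 5 Trim genes and 615 of all tested genes remained called, by construction. Median-ratio scaling left 9 Trim genes lower, and a mean FPKM of at least 5 left 4 called genes in the chromosome 7 cluster, since fewer were tested. The median log2 fold change of the Trim genes was -0.028 with no filter, -0.018 after median-ratio scaling and -0.043 after quantile normalization, and it ranged from -0.15 (without control replicate 2) to -0.085 with each library left out. The cause of the scaling differences was not tested. Small, uncalled changes reversed sign. Trim34a was at 0.092 after median-ratio scaling, 0.089 after quantile normalization, 0.00047 with array weights and between -0.060 and 0.030 with each library left out. Trim16 ranged from -0.047 to 0.052 with each library left out. Median-ratio scaling turned Trim8 to 0.014, Trim36 to 0.011 and Trim11 to 0.0029. Replicate numbers did not pair the samples, with correlations of same-numbered deviations of 0.0138, 0.00784 and 0.0402, and only number 3 correlating best with itself. With the replicate block 5708 of all tested genes and 23 Trim genes were called, without Trim27 (adjusted p = 0.0558) and Trim59 (0.0524). Depth limits Trim genes with few fragments per library, such as Trim6, Trim7 and Trim46.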
